A study of Mus musculus with 36 samples.

Results

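The genes described here are the transporters of organic ions, carnitine and monocarboxylates of 9 solute carrier families: Slc10, Slc16, Slc17, Slc19, Slc22, Slc28, Slc29, Slc47 and Slco. They were taken by gene symbol and made up 83 of the 38283 genes in the deposited count table. The rule itself uses no measured value, but it was chosen with earlier results of these data known. Liver RNA had been sequenced from 36 mice on a C57Bl/6J background at 16 weeks of age, 6 mice in each of 6 groups. Wild-type mice, and WT/Y657* mice heterozygous for a premature stop codon knocked into Pik3r1, were studied with free access to food, after a fast of 16 h, or 6 h after such a fast was ended by refeeding. The study describes the fed and fasted mice as males, and the sex of the refed mice is not given in the sources used here. The allele is carried in every cell, so its effect within the liver and that through other tissues cannot be told apart. The knock-in was made by homologous recombination with a LoxP-flanked neomycin cassette. The comparisons address what food withdrawal and its return do to these transcripts, and whether the mutant allele alters them.

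Solute carriers move small molecules across membranes without directly using ATP. In hepatocytes, bile acids and drugs enter from the portal blood through Slc10 and Slco carriers, organic cations and anions through Slc22 carriers, and leave partly through Slc47 exchangers. Slc22a5 takes up carnitine, which mitochondria need to import long-chain fatty acids during a fast, and Slc16 carriers pass lactate, pyruvate and ketone bodies between liver and blood. Folate and thiamine enter through Slc19 carriers, and nucleosides through Slc28 and Slc29 carriers.

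For members that rose or fell with fasting in both genotypes, the promoter (the bases from 250 before to 50 after the start, RefSeq, GRCm38.p6) is printed to show what precedes a carnitine, a monocarboxylate and a pair of organic anion carriers whose transcripts moved together. Capitals mark matches, on either strand, to any of 5 motifs: the nuclear receptor hexamer AGGTCA, the E box CACGTG, the forkhead motif TGTTTAC, the HNF1 motif GTTAAT and the GC box GGGCGG. Slc22a5 and Slc16a1 rose with fasting, and Slc22a28 and Slc22a30 fell.
Slc22a5: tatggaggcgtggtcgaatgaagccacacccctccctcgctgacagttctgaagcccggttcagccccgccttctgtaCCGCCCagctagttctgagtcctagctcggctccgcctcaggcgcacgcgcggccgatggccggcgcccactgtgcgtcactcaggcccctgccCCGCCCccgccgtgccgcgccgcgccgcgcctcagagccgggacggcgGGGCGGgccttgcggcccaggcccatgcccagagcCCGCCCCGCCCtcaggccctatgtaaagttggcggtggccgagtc
Slc16a1: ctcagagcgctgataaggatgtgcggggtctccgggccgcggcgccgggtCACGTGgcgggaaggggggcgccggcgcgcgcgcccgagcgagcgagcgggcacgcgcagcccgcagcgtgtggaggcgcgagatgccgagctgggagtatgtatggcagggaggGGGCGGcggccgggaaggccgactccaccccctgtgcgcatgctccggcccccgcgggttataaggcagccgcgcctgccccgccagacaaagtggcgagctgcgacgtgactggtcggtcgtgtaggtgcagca
Slc22a28: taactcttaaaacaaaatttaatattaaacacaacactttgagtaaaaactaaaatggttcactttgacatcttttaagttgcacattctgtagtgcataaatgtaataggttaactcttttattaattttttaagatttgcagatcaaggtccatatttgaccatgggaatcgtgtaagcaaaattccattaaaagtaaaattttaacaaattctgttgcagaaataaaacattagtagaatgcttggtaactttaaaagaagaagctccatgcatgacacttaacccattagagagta
Slc22a30: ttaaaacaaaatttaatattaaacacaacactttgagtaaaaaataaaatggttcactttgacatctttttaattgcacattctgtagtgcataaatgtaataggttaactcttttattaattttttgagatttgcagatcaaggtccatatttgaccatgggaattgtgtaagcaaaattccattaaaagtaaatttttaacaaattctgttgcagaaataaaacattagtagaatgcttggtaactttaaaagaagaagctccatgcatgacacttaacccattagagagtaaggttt
These windows lie at chr11:53891654-53891953 on the minus strand for Slc22a5, at chr3:104638414-104638713 on the plus strand for Slc16a1, and at chr19:8131933-8132232 and chr19:8405056-8405355, both on the minus strand, for Slc22a28 and Slc22a30. The Slc22a5 window held 5 GC boxes, 2 of which overlap by a base, and the Slc16a1 window 1 E box and 1 GC box. The Slc22a28 and Slc22a30 windows held none of the 5 motifs, and over an alignment of 294 bases they were identical at 288 (98.0%). Of all 32851 promoters in the table, 35.7% held a GC box, 7.15% the E box, 16.3% the nuclear receptor hexamer, 3.65% the forkhead motif and 7.10% the HNF1 motif. A promoter was at hand for 38 of the 51 members that could be tested. A match is a description of letters and was not tested as a binding site.

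The libraries held from 8839488 to 19542775 counts on genes per mouse, with a median of 13596665.5. Levels are given as CPM, counts scaled to a common library total after adjustment by the trimmed mean of M-values. No pair of mice within a group had counts alike enough to be 1 library deposited again. The transcript of Pik3r1 itself, which sums both alleles, had medians of 127 CPM in fed wild-type and 136 CPM in fed WT/Y657* mice, by library size alone, and it does not show which allele was present. Of 6 hepatocyte markers such as Alb and Ttr, all were detected, at a summed 47254 to 89068 CPM per mouse. The 4 kidney tubule markers summed to at most 0.502 CPM, with Kap at 0 in every mouse. Markers of other liver cells were present at lower levels, and in such bulk RNA fewer cells of a type and less RNA per cell cannot be told apart.

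Of the 83 members, 75 had at least 1 count and 51 passed the filter on low counts. The other 32 had mean levels of at most 0.394 CPM, and 8 of them were listed at 0 in every mouse. Those with no or few counts included carriers best known from kidney, such as Slc22a6, an organic anion carrier, at no more than 0.0853 CPM in any mouse, Slc22a8 at no more than 0.582 CPM and Slc22a2, an organic cation carrier, at no more than 0.0768 CPM. By family, the tested members were 5 of 7 in Slc10, 12 of 14 in Slc16, 7 of 9 in Slc17, 2 of 3 in Slc19, 13 of 25 in Slc22, 1 of 3 in Slc28, 2 of 4 in Slc29, 1 of 2 in Slc47 and 8 of 16 in Slco. A member that passed the filter only through 1 high group had to differ between groups, so the counts below describe the 51 and not all 83.

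Per kilobase of exon, the most abundant transcript was Slco1b2, a hepatic uptake carrier for bile acids, bilirubin and statins. It had a mean of 305 CPM per kb over all mice, 26.7% of the sum over all members, tested or not. Slc10a1, the sodium-dependent bile acid carrier, stood at 152 CPM per kb and Slco1a1, an anion and steroid conjugate carrier, at 87.5 CPM per kb. The next 6 were Slc17a2 at 41.0, Slc29a1, the equilibrative nucleoside carrier, at 33.5, Slc22a18, an imprinted gene, at 32.3, Slc47a1, the proton-coupled exporter of cations into bile, at 31.8, Slco2b1 at 29.8 and Slc19a2, a thiamine carrier, at 28.6 CPM per kb. From Slc29a1 to Slc19a2, neighbours in this order differed by less than the standard deviation between mice in most groups. Slc22a5 averaged 13.6 CPM per kb and Slc19a1, the reduced folate carrier, 1.52 CPM per kb. Slc28a2, a concentrative nucleoside carrier and the only tested member of its family, averaged 0.233 CPM per kb. Of the 50-base stretches of its transcripts, 35.4% also occur in Gm14085, so its value is uncertain.

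**Figure D1:**
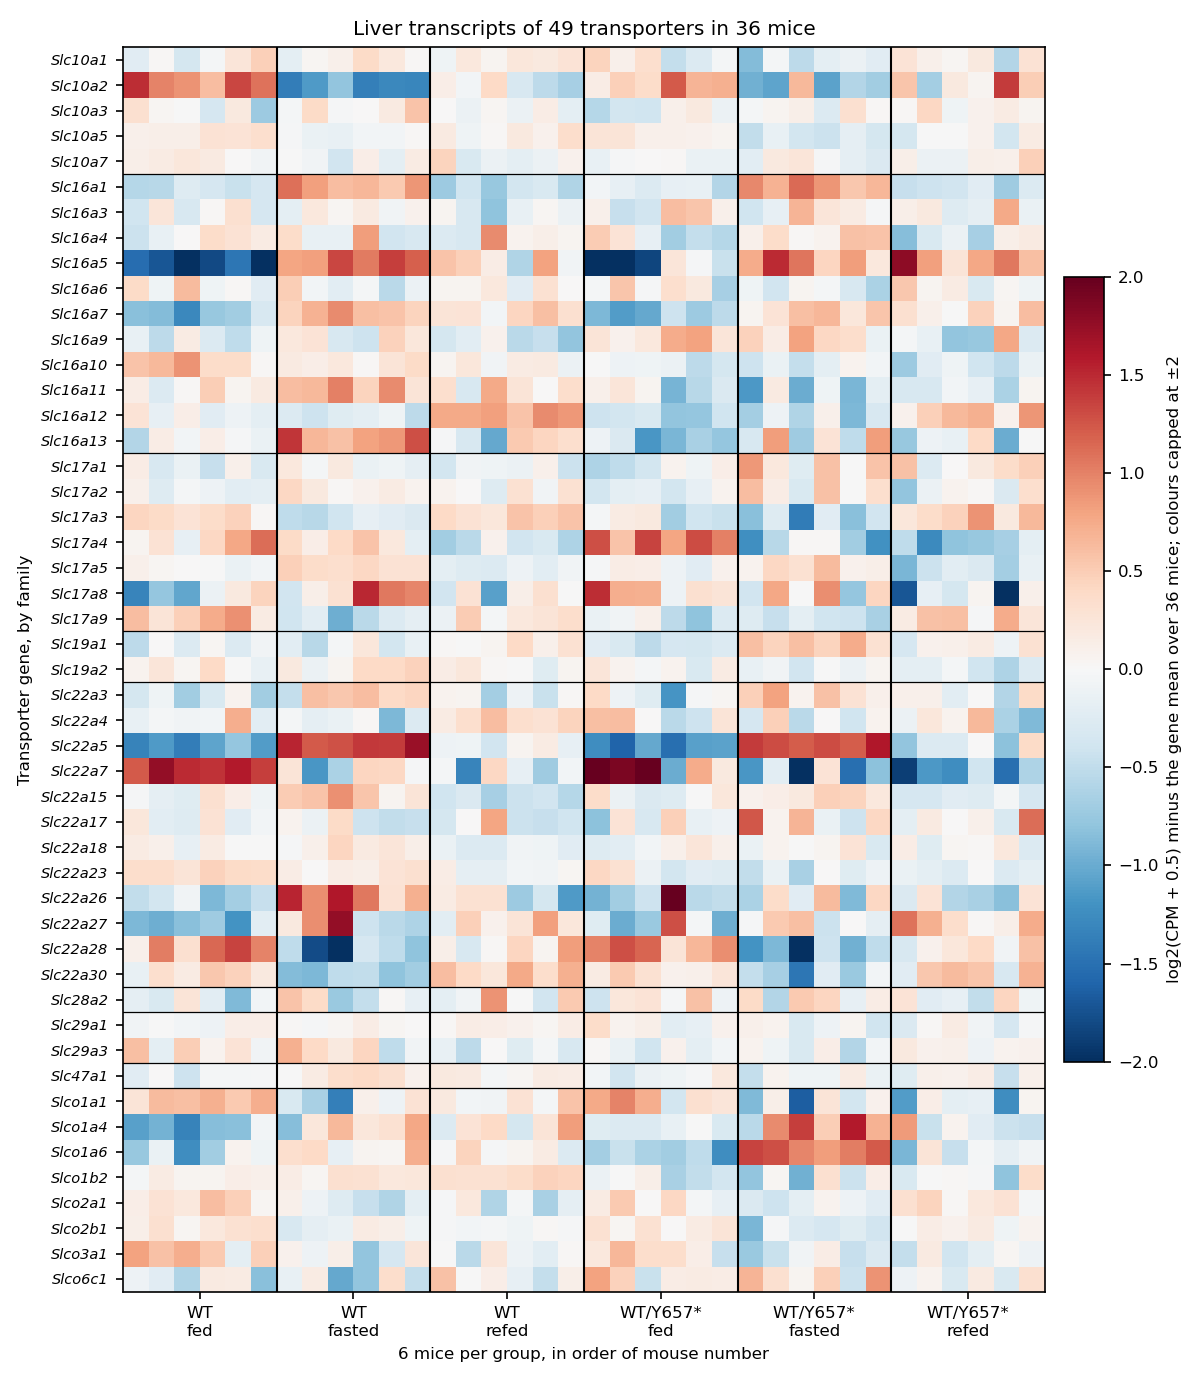
Heat map of 49 of the 51 tested members (rows, grouped by family) in the 36 mice (columns, 6 per group), coloured by log2(CPM + 0.5) minus the mean of that gene over all mice. Slc22a5 is red in all 12 fasted mice, Slc10a2 is blue in all 6 fasted wild-type mice, and the fed WT/Y657* columns fall into 3 lower-numbered and 3 higher-numbered mice that differ for Slc16a5 and Slc22a7.

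Fasting changed 27 of the 51 tested transporters in wild-type mice. In these mice 15 rose and 12 fell (adjusted p under 0.05 in edgeR's quasi-likelihood test, with p-values adjusted over all 13945 genes tested by the method of Benjamini and Hochberg). Thus 52.9% were called, beside 32% of all genes, of which 14.5% rose and 17.5% fell. In WT/Y657* mice 12 rose and 12 fell (47.1%, beside 32.9% of all genes, with 15.2% higher and 17.7% lower). The median absolute log2 change was 0.34 for members in wild-type animals and 0.38 in WT/Y657* animals, where all genes had 0.25 in both. With different mice in each genotype, 9 members rose in both (17.6%, beside 7.65% of all genes) and 10 fell in both (19.6%, beside 10.1%), none moved in opposite directions (0.552% of all genes did), 8 were called in wild-type mice alone and 5 in WT/Y657* mice alone. Levels in fed and fasted mice did not overlap at all for 14 members in wild-type animals (27.5%, beside 17.6% of all genes) and for 10 in WT/Y657* animals (19.6%, beside 11.5%). Fed mice carried other mouse numbers than fasted and refed mice, so feeding state and any difference between these series of mice cannot be told apart. Markers of liver endothelium rose too, 4 of 6 in wild-type mice (summed 232 to 315 CPM fed and 329 to 379 CPM fasted) and 1 of 6 in WT/Y657* mice (266 to 325 and 317 to 379 CPM), none was at 0, and their part in the members' values was not tested.

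Slc22a5, the high-affinity carnitine carrier (11:53864542-53891660, minus strand, GRCm38), had the smallest p of all members in both fasting responses. It ran from 11.9 to 18.2 CPM (median 14.2) in fed wild-type mice, from 74.8 to 105 (median 84.7) in fasted and from 24 to 35.2 (median 29.5) in refed wild-type mice. In WT/Y657* mice the ranges were 10 to 15.2 (median 13.8) fed, 73.7 to 96.6 (median 78.7) fasted and 17.6 to 41.2 (median 26.1) refed. Every fasted mouse of either genotype thus stood above every fed and refed mouse. The log2 fold change with fasting was 2.60 for wild-type mice (standard error, SE, 0.15, adjusted p = 7.1e-15, edgeR) and 2.63 for WT/Y657* mice (SE 0.15, adjusted p = 3.8e-15), and the difference of these responses was 0.03 (SE 0.21, adjusted p = 0.97). Refeeding lowered it by a log2 change of -1.53 and -1.60, which left it above the fed level by 1.07 in wild-type (adjusted p = 2.3e-06) and 1.03 in WT/Y657* mice (adjusted p = 3.7e-06, edgeR). Of the 50-base stretches of its transcripts, 26.3% also occur in its paralogs Slc22a21 or Slc22a4 or in Gm12220. Slc22a21 was at no more than 0.842 CPM and Slc22a4, a carrier of ergothioneine, at no more than 5.27 CPM in any mouse, and Gm12220 was listed at 0. The part of shared reads in the Slc22a5 values was not tested.

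The enzymes that make and use carnitine moved in the same direction. Of 8 tested genes of this list, 7 rose with fasting in wild-type animals and 6 in WT/Y657* animals, with none lower and median log2 changes of 1.15 and 0.96, beside 0.010 and -0.0079 over all genes. Crat, carnitine acetyltransferase, rose by 2.67 and 2.34, Cpt1a, the rate-limiting step of mitochondrial fatty acid entry, by 1.60 and 1.34, and Slc25a20, the mitochondrial carnitine-acylcarnitine exchanger, by 1.35 and 1.26. Bbox1, which completes carnitine synthesis, rose by 0.56 in wild-type mice and had a log2 change of 0.27 in WT/Y657* mice. In fasted mice 4 of the 8 were lower in WT/Y657* mice (Bbox1, Aldh9a1, Crot and Cpt2, log2 fold changes from -0.34 to -0.29), while Slc22a5 had -0.09 (adjusted p = 0.72, edgeR). Of all genes, 6.63% were lower in that comparison.

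Several monocarboxylate carriers rose as well. Slc16a1, the lactate and ketone body carrier of the liver (3:104638668-104658462, plus strand), was at 65.8 to 81.7 CPM (median 74.8) in fed, 141 to 211 (median 164) in fasted and 57.9 to 79.2 (median 69.3) in refed wild-type mice. In WT/Y657* mice it was at 65.1 to 93.9 (median 87.8), 142 to 215 (median 170) and 59.6 to 83.5 CPM (median 74.2). Fasted mice stood apart from fed and refed mice in both genotypes, and refed mice were back within the fed range or just below it. The fasting log2 fold changes were 1.2 and 1.05 (SE 0.10 each, adjusted p = 1.7e-11 and 3.5e-10, edgeR), and those of refeeding -1.30 and -1.24.

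Slc16a7, a high-affinity pyruvate and lactate carrier, behaved otherwise on refeeding. It rose with fasting from 20.9 to 41.3 CPM (median 29.6) to 70.9 to 99.8 (median 78.1) in wild-type mice, and from 23.6 to 38.9 (median 29.3) to 54.2 to 82.4 (median 69.7) in WT/Y657* mice. Refed mice stayed at 50.2 to 78.9 (median 64.1) and 51.7 to 80.2 CPM (median 60.4), above every fed mouse of their genotype. Its log2 fold change was 1.40 and 1.19 with fasting, and still 1.10 (adjusted p = 5.4e-07) and 1.05 (adjusted p = 9.6e-07, edgeR) in refed against fed mice.

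Slc16a5, a family member with drug substrates, had the largest fasting log2 fold change among called members in wild-type mice, 3.0 (SE 0.40, adjusted p = 6.1e-07), from 3.41 to 6.09 CPM (median 4.80) to 30.5 to 46.2 (median 38.4). In WT/Y657* mice the change was 1.65 (SE 0.37, adjusted p = 0.00075, edgeR), from 1.88 to 20.7 (median 8.60) to 20.2 to 49.6 CPM (median 30.4). The difference of -1.35 between the genotypes was not called (adjusted p = 0.15). The fed WT/Y657* mice were split: the 3 with the lowest mouse numbers were at 1.88 to 4.54 CPM and the 3 with higher numbers at 12.7 to 20.7. With the 3 lower-numbered fed mice alone the WT/Y657* change was 3.26 (adjusted p = 1.6e-07, edgeR). These 3 mice were kept after the data were seen, so the larger change follows from the split and is no separate result. Slc16a13, a lactate carrier, rose by 1.2 and 1.0 at a low level, from a median of 2.33 to 4.68 CPM in wild-type and from 1.27 to 2.41 CPM in WT/Y657* mice, where the 3 lower-numbered fed mice alone gave 0.80 (adjusted p = 0.15, edgeR).

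Other members that rose in both genotypes were Slco1a6 (described below), Slc17a5, the lysosomal sialic acid exporter (0.38 and 0.28, the latter 0.20 with an adjusted p of 0.22 with the 3 lower-numbered fed mice alone), and, named only to complete the count, Slco1a4, an organic anion and digoxin carrier (1.10 and 1.12), and Slc22a3, an extraneuronal cation carrier (0.79 and 0.57). An exon of Slc22a3 overlaps the liver gene Plg on the opposite strand, and how strand was used in counting is not given in the sources used here. Slc22a15 rose in wild-type mice by 0.53 (adjusted p = 0.0024, edgeR) and had 0.27 in WT/Y657* mice. Slc47a1 rose in wild-type mice by 0.34 (adjusted p = 0.0096) and had -0.01 in WT/Y657* mice, and the difference of -0.35 was not called (adjusted p = 0.16, edgeR). Slc17a2, a phosphate and anion carrier, rose in WT/Y657* mice by 0.46 (adjusted p = 0.0096) and had 0.28 in wild-type mice, with a difference of 0.18 (adjusted p = 0.67, edgeR).

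**Figure D2:**
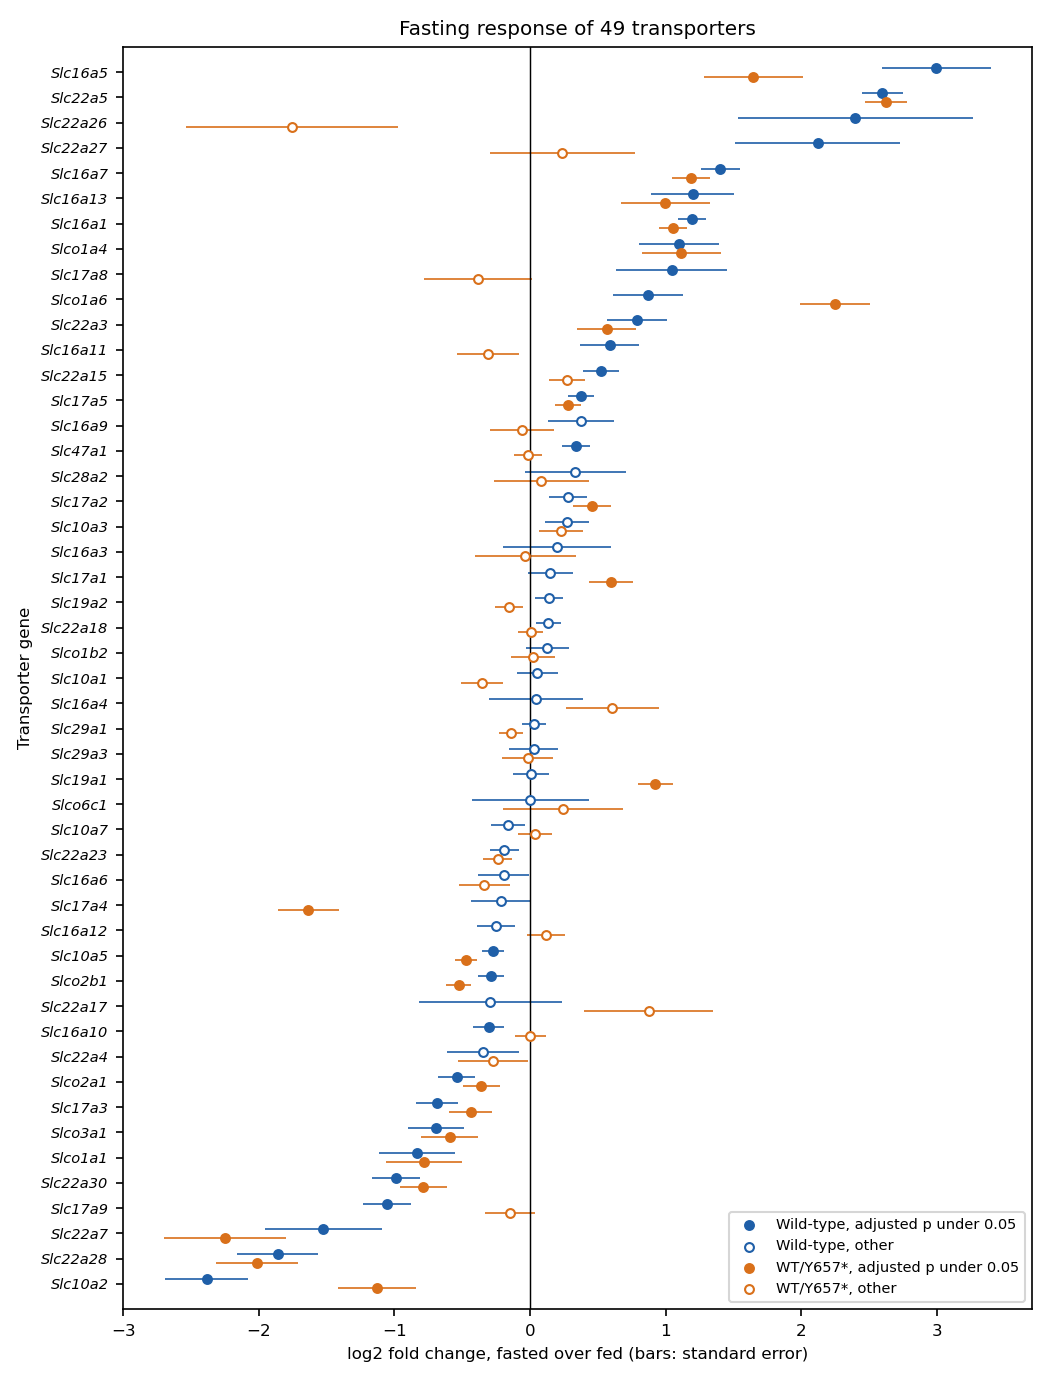
Log2 fold change of 49 of the 51 tested members in fasted over fed mice (x axis), for wild-type mice (blue) and WT/Y657* mice (orange), in the order of the wild-type values. Bars are standard errors and filled points have an adjusted p under 0.05; Slc22a5 lies at 2.60 and 2.63, and Slc22a28 at -1.86 and -2.02.

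Slc22a28 and Slc22a30, paralogs of the organic anion carriers on chromosome 19 whose promoters are printed above, fell together. They lie at 8062209-8131982 and 8335371-8405111, both on the minus strand (GRCm38), with Slc22a29 between them. Slc22a28 was at 7.18 to 17.8 CPM (median 13.9) in fed and 1.28 to 5.19 (median 4.08) in fasted wild-type mice, and at 8.09 to 16.9 (median 13.4) and 0.912 to 4.86 (median 3.25) in WT/Y657* mice. Slc22a30 was at 71.2 to 115 CPM (median 95.4) and 42.2 to 55.9 (median 46.9) in wild-type, and at 83.6 to 114 (median 91.0) and 28.8 to 76.4 (median 53.3) in WT/Y657* mice. Within each genotype, fasted mice of neither gene overlapped fed mice. The log2 fold changes were -1.86 and -2.02 for Slc22a28 (adjusted p = 9.6e-06 and 3.3e-06, edgeR) and -0.99 and -0.79 for Slc22a30 (adjusted p = 5.0e-05 and 0.00076). Of the 50-base stretches of Slc22a28, 53.9% also occur in Slc22a30, Slc22a27 or Slc22a29, and 34.2% of those of Slc22a30 occur in Slc22a28 or the same paralogs, so the separate values of these genes are uncertain.

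Slc22a7, an organic anion carrier of the sinusoidal membrane, fell with a log2 change of -1.52 in wild-type mice (adjusted p = 0.0067) and -2.25 in WT/Y657* mice (adjusted p = 0.00023, edgeR). It was at 43.2 to 62.9 CPM (median 51) in fed and 7.80 to 24.7 (median 19.8) in fasted wild-type mice, and at 8.93 to 94.3 (median 49.6) and 3.02 to 22.1 (median 8.98) in WT/Y657* mice. Refed mice stayed low, at 6.98 to 24.3 CPM (median 16.9) in wild-type and 4.56 to 13.6 (median 7.68) in WT/Y657* mice. The wide fed WT/Y657* range is again the split by mouse number, 68.6 to 94.3 CPM in the lower-numbered and 8.93 to 30.7 in the higher-numbered 3. With the lower-numbered 3 alone the change was -2.93 (adjusted p = 1.4e-06, edgeR). Here too the subset was chosen after the data were seen, and the larger change follows from the split.

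Slc10a2, the apical bile acid carrier of ileum and bile duct, fell with a log2 change of -2.38 in wild-type mice (SE 0.31, adjusted p = 2.9e-07) and -1.13 in WT/Y657* mice (SE 0.29, adjusted p = 0.0030, edgeR). All 6 fasted wild-type mice, at 5.96 to 9.31 CPM (median 6.37), were below all 6 fed, at 25.4 to 46.3 (median 34.2). Fed WT/Y657* mice were at 18.2 to 39.0 (median 24.7) and fasted ones at 7.54 to 26.1 (median 9.06), where 1 mouse at 26.1 CPM overlapped the fed range. With the 3 lower-numbered fed WT/Y657* mice alone the change was -0.82 (adjusted p = 0.077). The test of the difference between genotypes gave 1.26 (adjusted p = 0.080, edgeR). Of 4 tested bile duct markers 1 fell in each genotype, Sox9 in wild-type and Krt19 in WT/Y657* mice, where 17.5% and 17.7% of all genes fell. All 5 in the table summed to no more than 12.5 CPM in any mouse and the median of this sum was lower in fasted than in fed mice, 5.36 against 7.30 CPM in wild-type and 4.46 against 7.27 CPM in WT/Y657* mice. Their part in the Slc10a2 result was not tested.

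Slco1a1 fell with a log2 change of -0.83 and -0.78, Slc17a3, a renal and hepatic urate carrier, by -0.69 and -0.44, Slco2a1, the prostaglandin carrier, by -0.54 and -0.36, Slco2b1 by -0.29 and -0.52 and Slc10a5 by -0.27 and -0.47, and, to complete the count, Slco3a1 by -0.69 and -0.59. Slc10a5 overlaps the predicted gene Gm38303 on the same strand, so its counts are uncertain. Some of the most abundant carriers did not pass the test in either genotype: the fasting changes were 0.13 and 0.02 for Slco1b2, 0.05 and -0.35 for Slc10a1 and 0.03 and -0.14 for Slc29a1. Slco1b2 ran from 1426 to 1638 CPM (median 1544) in fed and 1499 to 1815 (median 1701) in fasted wild-type mice.

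**Figure D3:**
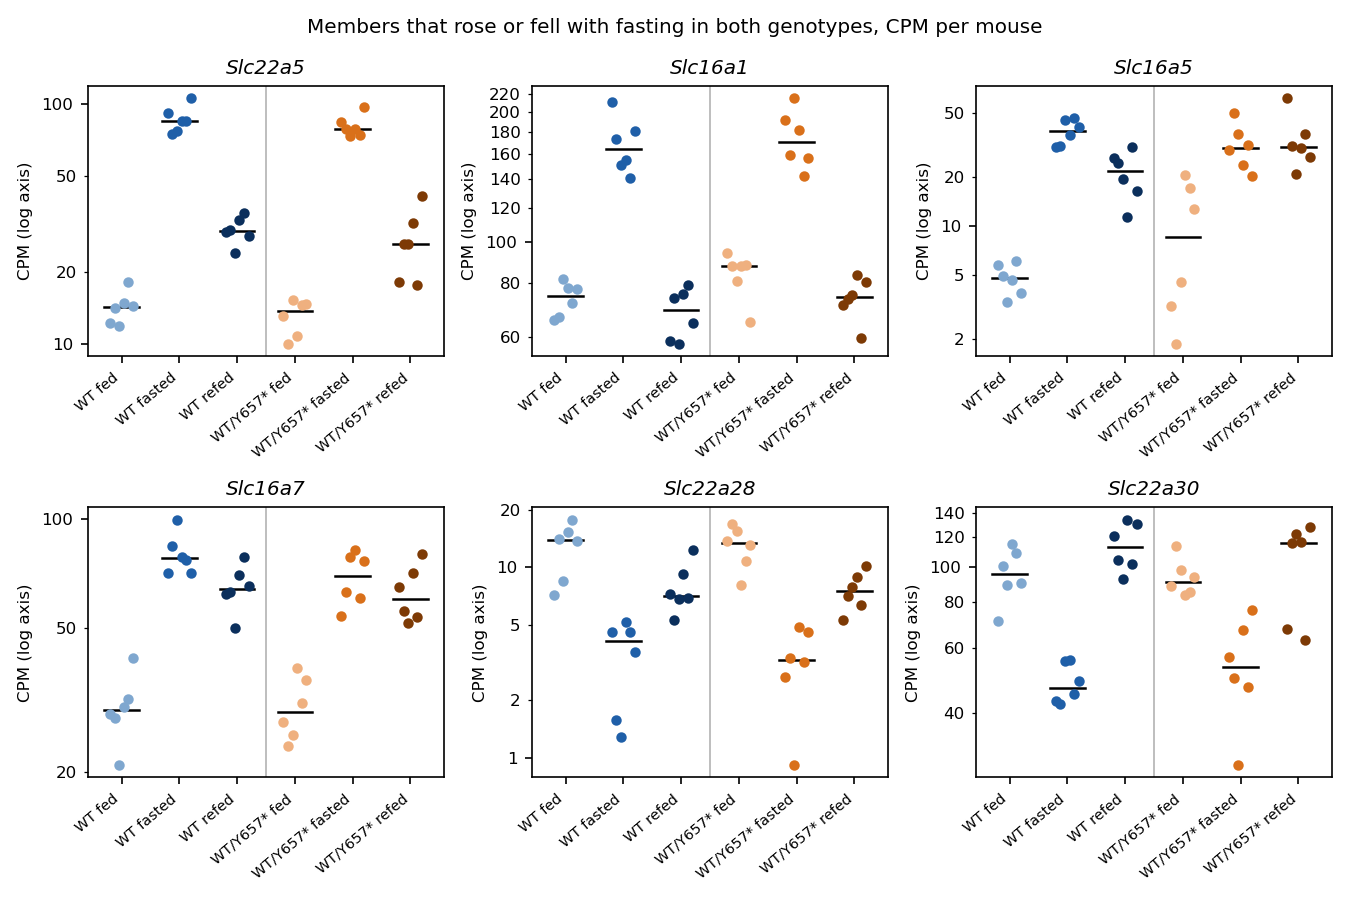
CPM in each mouse (points, log axis) of 6 members that rose or fell with fasting in both genotypes, with group medians as bars. Slc22a5 has medians of 14.2, 84.7 and 29.5 CPM in fed, fasted and refed wild-type mice and 13.8, 78.7 and 26.1 CPM in WT/Y657* mice, while Slc16a7 stays high in refed mice.

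Among the partners of these carriers, 3 of 12 tested genes rose and 4 fell with fasting in wild-type mice, and 1 rose and 4 fell in WT/Y657* mice (median log2 changes -0.12 and -0.20). Of all genes, 14.5% rose and 17.5% fell in wild-type mice, and 15.2% rose and 17.7% fell in WT/Y657* mice. The same shares stand beside the counts of regulators and enzymes below. Abcb4, the canalicular phospholipid pump, rose by 1.32 and 1.07, and Abcb11, the canalicular bile salt pump, fell with a log2 change of -0.98 and -0.99. Bsg, the chaperone of Slc16a1 at the membrane, had log2 changes of 0.01 and 0.02. Of 15 regulators known to act on hepatic carriers, 3 rose in wild-type mice, and 5 rose and 3 fell in WT/Y657* mice. Ppara, the fatty acid receptor whose known targets include Slc22a5, rose by 0.70 and 0.50, and Nr1i3, the xenobiotic receptor CAR, by 1.86 and 1.96. Of 11 enzymes of folate, thiamine and nucleoside metabolism, 3 rose and 1 fell in wild-type mice, and 5 rose and 3 fell in WT/Y657* mice, with Upp2, a uridine phosphorylase, lower with a log2 change of -1.49 and -1.73.

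Refeeding for 6 h changed 18 of the 51 members in wild-type mice, 8 higher and 10 lower than in fasted mice (35.3%, beside 30.2% of all genes), and 17 in WT/Y657* mice, 9 higher and 8 lower (33.3%, beside 31.3%). These shares were near those of all genes, of which 16.5% rose and 13.7% fell in wild-type mice, and 17.1% rose and 14.2% fell in WT/Y657* mice. The comparison shares the fasted mice with the fasting response, so its values are given beside it only. In both genotypes 6 members rose (11.8%, beside 10.2% of all genes), 4 fell (7.84%, beside 7.59%), and 1, Slc19a1, moved in opposite directions (1.96%, beside 0.251%).

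Slc16a12, a creatine carrier, rose on refeeding and did not pass the test in either fasting response. It was at 84.2 to 119 CPM (median 89.5) in fed, 68.3 to 92.6 (median 82.2) in fasted and 147 to 189 (median 171) in refed wild-type mice, and at 56.6 to 79.2 (median 73.9), 52.5 to 106 (median 71.5) and 104 to 182 (median 146) in WT/Y657* mice. Refed mice were above all fed and fasted mice in wild-type animals. In WT/Y657* mice they were above all fed mice, and a fasted mouse at 106 CPM reached into their range. The refeeding log2 fold changes were 1.08 (adjusted p = 3.4e-07) and 0.90 (adjusted p = 6.1e-06), and those of fasting -0.25 (adjusted p = 0.18) and 0.12 (adjusted p = 0.54, edgeR).

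Slc22a30 rose on refeeding by 1.24 and 0.91, Slc22a28 by 1.19 and 1.24, Slc10a2 by 1.12 and 0.96 and Slc17a3 by 0.79 and 1.10. Slc17a9, the vesicular nucleotide carrier, rose by 0.68 and 0.89. Slc17a5 fell with a log2 change of -0.56 and -0.71 and Slc22a15 by -1.01 and -0.55. Slco2b1 rose in WT/Y657* mice by 0.41 (adjusted p = 0.00076, edgeR) and had 0.03 in wild-type mice, and the difference of 0.38 was not called (adjusted p = 0.13). Slc22a18 fell in wild-type mice by -0.36 (adjusted p = 0.0030), from 53.6 to 73.3 CPM (median 60.6) to 44.7 to 51.6 (median 48.3), and was not called in WT/Y657* mice (adjusted p = 0.97), with a difference of 0.35 (adjusted p = 0.16, edgeR).

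Refed mice also differed from fed mice. Against fed mice, 7 members were higher and 10 lower in wild-type mice (33.3%, beside 27.5% of all genes, 13.2% higher and 14.3% lower), and 8 higher and 10 lower in WT/Y657* mice (35.3%, beside 26.1%, 13% higher and 13.1% lower). The count in WT/Y657* mice was 11 without the lowest-numbered fed mouse, and likewise 11 without the refed mouse with the next to highest number. Slc16a5 was higher by 2.16 and 1.76, the latter 3.38 with the 3 lower-numbered fed mice alone, and Slc22a5, Slc16a7 and Slc16a12 were higher in both genotypes, as given above, as was Slc19a1 by 0.35 and 0.41. With the 3 lower-numbered fed WT/Y657* mice alone Slc19a1 was at 0.43 and not called (adjusted p = 0.059, edgeR). Slc22a7 was lower with a log2 change of -1.74 and -2.58, the latter -3.26 with those 3 mice alone. For Slc16a5 and Slc22a7 the larger changes follow from the split of the fed mice given above. Slc17a4, an anion and thyroid hormone carrier of the intestine and liver, was lower with a log2 change of -0.90 and -1.79.

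Most genotype calls were made in fasted mice. There 13 of 51 members were called, 2 higher and 11 lower in WT/Y657* mice (25.5%), where 13.1% of all genes were called, 6.43% higher and 6.63% lower. The median log2 fold change was -0.17 over the members and 0.0021 over all genes. The count was 7 without the lowest-numbered fasted WT/Y657* mouse. Members whose groups did not overlap numbered 5 (9.80%, beside 5.04% of all genes), among them Slc16a11, Slc19a1 and Slco1a6. Beside this, 1 of 6 endothelial and 1 of 5 stellate cell markers were higher in fasted WT/Y657* mice, and none of the 6 hepatocyte markers was called. The summed stellate markers ranged from 305 to 368 CPM in wild-type and 332 to 479 CPM in WT/Y657* mice, the endothelial ones from 329 to 379 and from 317 to 379 CPM, and none of the defining markers was at 0. Their part in the genotype results was not tested.

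Slc16a11, a pyruvate carrier of the endoplasmic reticulum and plasma membrane, was the most reduced of those called. It was at 6.00 to 10.5 CPM (median 7.94) in fasted wild-type mice and 1.96 to 5.66 (median 3.32) in fasted WT/Y657* mice, which is -1.24 on the log2 scale (SE 0.23, adjusted p = 0.00033, edgeR). All 6 mutants were below all 6 wild-type mice. By mouse number, fasted mice formed a lower and a higher series, each with 3 mice of either genotype, and these gave -1.29 and -0.94 (log2 ratio of mean CPM with 0.5 added). In fed mice the change was -0.34 (adjusted p = 0.44) and in refed mice -0.54 (adjusted p = 0.40), and the test of a difference in the fasting response gave -0.90 (adjusted p = 0.095). Its neighbour on chromosome 11, Slc16a13, on the opposite strand, was lower with a log2 change of -0.90 (adjusted p = 0.043).

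Slc16a10, which carries aromatic amino acids and thyroid hormone, was lower in fasted WT/Y657* mice with a log2 change of -0.39 (adjusted p = 0.019, edgeR), from 90.2 to 115 CPM (median 101) in wild-type to 63.4 to 92.8 (median 78.8) in WT/Y657* mice. The lower and higher series gave -0.50 and -0.29.

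Other lower members were Slc17a4 (-0.81, adjusted p = 0.016), Slc22a23, whose substrate is not established (-0.43, adjusted p = 0.0055), Slc19a2 (-0.35, adjusted p = 0.020), Slc47a1 (-0.31, adjusted p = 0.042), Slco2b1 (-0.28, adjusted p = 0.042) and Slc10a5 (-0.26, adjusted p = 0.026, edgeR). All 6 were lower within both series. Slco1b2 and Slc10a1 had log2 fold changes of the same size, -0.41 each, with adjusted p = 0.084 and 0.072 (edgeR), and were not called. Fasted WT/Y657* mice ranged from 752 to 1819 CPM (median 1294) for Slco1b2, across the whole wild-type range of 1499 to 1815. Of the 15 regulators, 4 were lower in fasted WT/Y657* mice and none higher, among the former Ppara by -0.55, Stat5b by -0.43 and Nfe2l2 by -0.26. Of all genes, 6.63% were lower and 6.43% higher. Of the 12 partners, 2 were lower, the basolateral efflux pump Abcc3 by -0.78 and the scaffold protein Pdzk1 by -0.34.

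**Figure D4:**
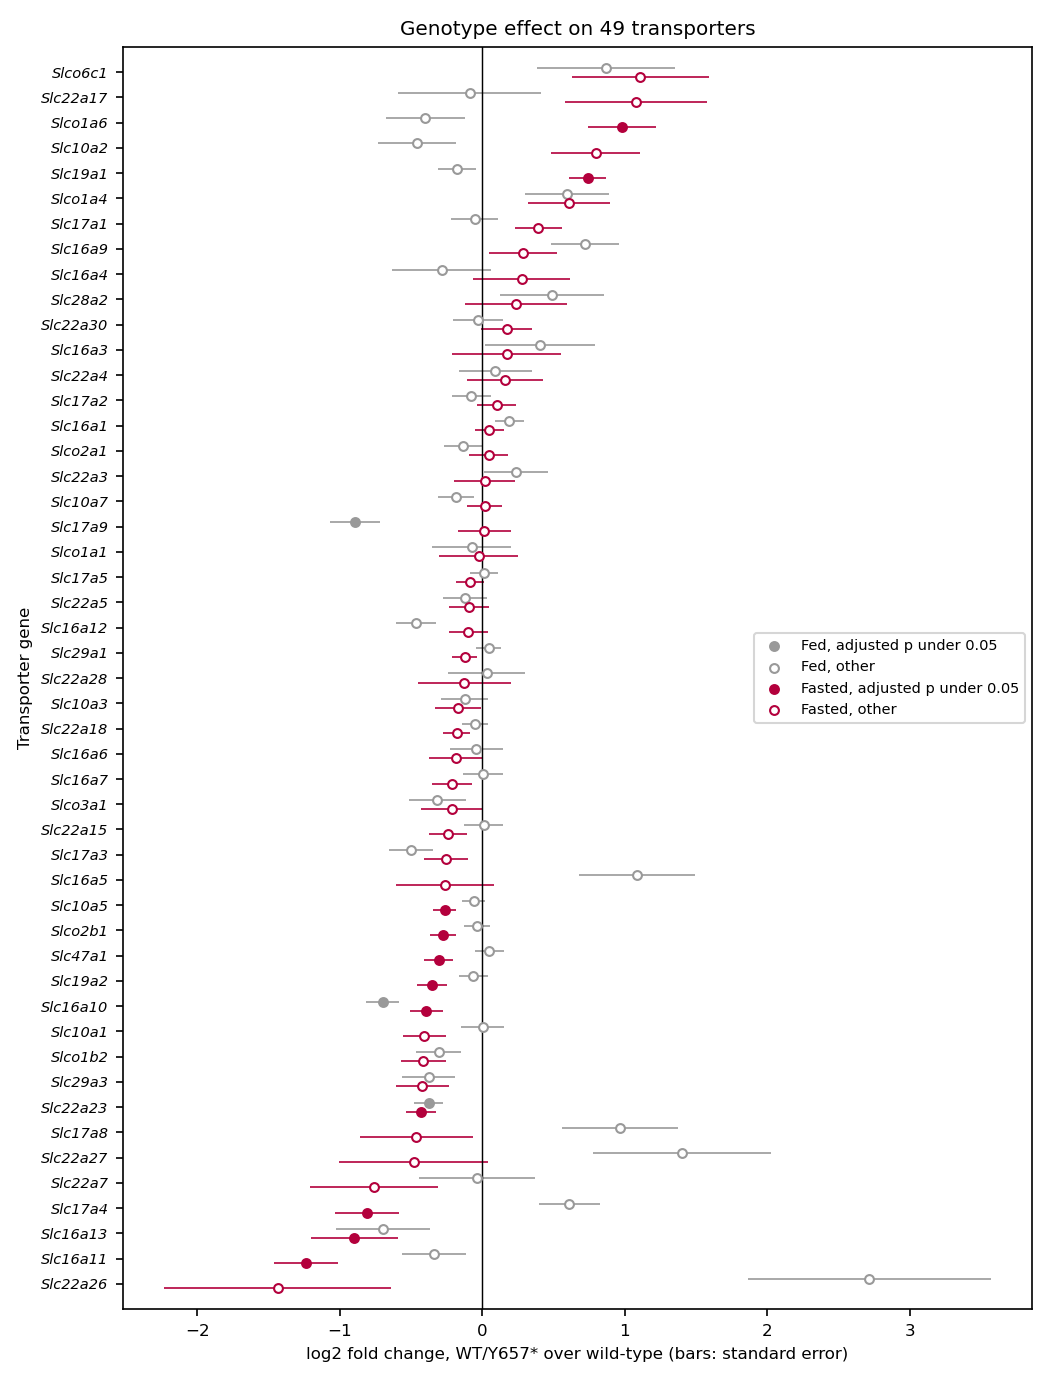
Log2 fold change of 49 of the 51 tested members in WT/Y657* over wild-type mice (x axis) in fed mice (grey) and fasted mice (red), ordered by the fasted values, with standard errors as bars and filled points for an adjusted p under 0.05. In fasted mice 9 filled points lie below 0 and 2 above, Slc19a1 at 0.74 and Slco1a6 at 0.98.

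In the fed state 3 of 51 members were called, all lower in WT/Y657* mice (5.88%, where 2.37% of all genes were called, 1.21% higher and 1.15% lower). Slc16a10 was at 90.1 to 165 CPM (median 123) in fed wild-type and 61.1 to 87.6 (median 81.7) in fed WT/Y657* mice (log2 fold change -0.70, adjusted p = 0.0013, edgeR). Slc17a9 was at 4.71 to 8.27 (median 6.31) and 2.17 to 4.47 CPM (median 3.55, log2 fold change -0.89, adjusted p = 0.0062). Slc22a23 was at 84.8 to 98.1 (median 91.0) and 54.8 to 94.3 CPM (median 62.8, log2 fold change -0.38, adjusted p = 0.043). Slc16a10 and Slc17a9 did not overlap between genotypes.

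The fed WT/Y657* mice consisted of 3 with adjoining lower numbers and 3 with higher numbers. Of the 51 members, 15 were lower (29.4%, beside 11.1% of all genes) and 6 higher (11.8%, beside 13.2%) in all 3 higher-numbered than in all 3 lower-numbered mice, among the former Slco1b2 (935 to 1138 against 1342 to 1583 CPM), Slco1a1 (330 to 531 against 704.8 to 845 CPM) and Slc22a23 (54.8 to 60.5 against 65.1 to 94.3 CPM). With the 3 lower-numbered mice alone, and with blocks of adjoining mouse numbers as covariates, none of the 3 members was called in the fed state, with changes of -0.57 and -0.27 for Slc16a10, -0.63 and -0.66 for Slc17a9 and -0.15 and -0.16 for Slc22a23. Within the only block of adjoining numbers that holds both fed genotypes, 3 WT/Y657* against 2 wild-type mice gave -0.27, -0.62 and -0.15. The fit with blocks compares the fed genotypes within these same mice only, so mouse number and fewer mice cannot be told apart in it. Macrophage markers (5 of 6 in the table, none called) summed to 203 to 673 CPM in fed WT/Y657* mice (median 435) and 212 to 296 CPM in fed wild-type mice (median 248). Of 5 stellate cell markers Dcn was higher by 0.43 and of 4 tested leukocyte markers Nkg7 by 2.78, where 1.21% of all genes were higher. The part of other cell types in the fed comparison was not tested.

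In refed mice no member was called by genotype with edgeR's quasi-likelihood test, nor by DESeq2, limma-voom or the likelihood ratio test, where 0.0287% of all genes were called by the first, 0.0215% higher and 0.00717% lower. Before adjustment 11 of the 51 had a p under 0.05 (21.6%, beside 9.53% of all genes). The fitted changes were -0.50 for Slco1a1 (adjusted p = 0.59), -0.45 for Slco1b2 (adjusted p = 0.36) and -0.42 for Slc16a10 (adjusted p = 0.21, edgeR).

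The fasting response itself differed between genotypes for 5 of 51 members (9.80%, 3 more positive and 2 more negative in WT/Y657* mice, where 4.35% of all genes were called, 2.59% and 1.76%), and the refeeding response for 2, both more negative (3.92%, beside 2.06%, of which 0.595% more positive and 1.46% more negative). Slc19a1, the reduced folate carrier (10:77032241-77166548, plus strand), did so in both. It was at 4.61 to 7.01 CPM (median 6.00) in fed, 4.51 to 8.13 (median 5.99) in fasted and 6.81 to 9.15 (median 7.22) in refed wild-type mice. In WT/Y657* mice it was at 4.60 to 5.75 (median 5.38), 8.56 to 11.8 (median 10.1) and 5.33 to 8.52 CPM (median 7.33). Fasted WT/Y657* mice were above every mouse of the fed groups and of the fasted wild-type group. For any member, both response differences and the genotype effect in fasted mice share the fasted mice, so they are not separate results.

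For Slc19a1 the fasting log2 fold change was 0.01 (SE 0.13, adjusted p = 0.97) in wild-type and 0.93 (SE 0.13, adjusted p = 4.7e-07) in WT/Y657* mice, with a difference of 0.92 (SE 0.18, adjusted p = 0.0032, edgeR). On refeeding the changes were 0.34 (adjusted p = 0.039) and -0.51 (adjusted p = 0.0017), with a difference of -0.86 (adjusted p = 0.0092). With the blocks of fed mouse numbers as covariates the fasting difference was 0.94 with an adjusted p of 0.058. Its genotype effect in fasted mice, 0.74 (adjusted p = 0.00018, edgeR), was 0.81 in the lower and 0.58 in the higher series. Among the enzymes next to it, Ggh, which cleaves folate polyglutamates, was higher by 0.35 in fasted WT/Y657* mice, and 9 of the 11 were not called. In that comparison 13.1% of all genes were called.

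Slco1a6, a carrier of organic anions, rose with fasting in both genotypes and more in the mutants. It was at 0.512 to 2.0 CPM (median 1.33) in fed, 1.63 to 3.46 (median 2.26) in fasted and 1.48 to 2.76 (median 1.91) in refed wild-type mice, and at 0.504 to 1.25 (median 1.02), 3.77 to 5.59 (median 4.73) and 0.771 to 2.36 CPM (median 1.69) in WT/Y657* mice. All 6 fasted WT/Y657* mice were above all other mice. The fasting log2 fold changes were 0.87 (adjusted p = 0.0090) and 2.25 (adjusted p = 8.6e-09), which differed by 1.38 (SE 0.37, adjusted p = 0.023, edgeR), and those of refeeding, -0.25 and -1.57, differed by -1.33 (adjusted p = 0.035). With the 3 lower-numbered fed WT/Y657* mice alone the fasting difference was 1.23 (adjusted p = 0.097), and with the blocks it was 1.75 (adjusted p = 0.055, edgeR).

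Slc17a4 fell with fasting in WT/Y657* mice, from 28.8 to 49.6 CPM (median 43.4) to 7.93 to 19.4 (median 12.3), with no overlap, and was at 17 to 42.1 (median 24.7) and 16.6 to 28.8 (median 23.8) in fed and fasted wild-type mice. The changes were -1.64 (adjusted p = 8.9e-07) and -0.22 (adjusted p = 0.49), which differed by -1.42 (SE 0.31, adjusted p = 0.0083, edgeR). With the blocks of fed mouse numbers as covariates the difference was -0.97 (adjusted p = 0.23). It was -1.46 (adjusted p = 0.024, edgeR) with the 3 lower-numbered fed WT/Y657* mice alone. That fit kept all fed wild-type mice, which also differed by number. The 2 in the block that holds both fed genotypes were at 33.1 and 42.1 CPM. Both lay within the fed WT/Y657* range and above every fasted wild-type mouse. The other fed wild-type mice were at no more than 25.8 CPM. The part of mouse number in the wild-type change of Slc17a4 was not tested. Slc17a9 fell with a log2 change of -1.05 in wild-type mice (adjusted p = 1.6e-05) and had -0.15 in WT/Y657* mice, a difference of 0.91 (adjusted p = 0.035, edgeR), which was 0.64 (adjusted p = 0.21) with the 3 lower-numbered fed WT/Y657* mice alone and 0.67 (adjusted p = 0.35) with the blocks. Fasted mice of both genotypes overlapped, at 1.86 to 3.61 CPM (median 3.17) in wild-type and 2.47 to 3.58 (median 3.0) in WT/Y657* mice.

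Slc22a26, a low-level organic anion carrier gene, had the largest difference in the fasting response, -4.15 (SE 1.17, adjusted p = 0.036, edgeR), but it rested on 1 fed WT/Y657* mouse, at 14.3 CPM where the next fed mutant was at 0.429. Without that mouse the difference was -1.14 (adjusted p = 0.43). In wild-type mice Slc22a26 rose from 0.163 to 0.682 CPM (median 0.391) to 1.01 to 3.26 (median 1.97) without overlap, a log2 change of 2.40 (adjusted p = 0.033).

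**Figure D5:**
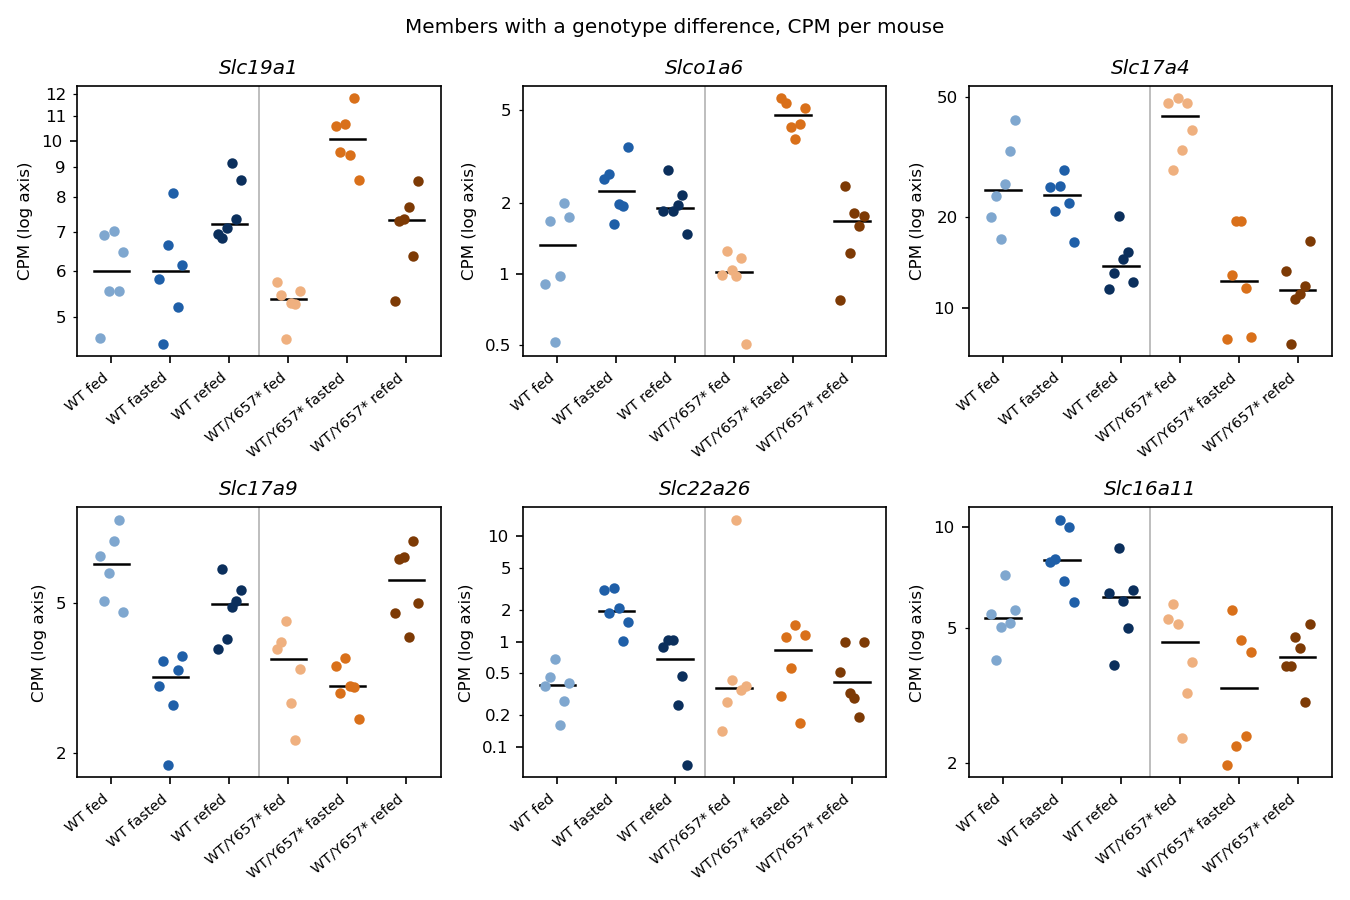
CPM in each mouse (points, log axis) of 6 members with a genotype difference in fasted mice or in a response to feeding, with group medians as bars. Slc19a1 and Slco1a6 are highest in fasted WT/Y657* mice (medians 10.1 and 4.73 CPM), Slc16a11 is lowest there (3.32 CPM), and a single fed WT/Y657* mouse stands at 14.3 CPM for Slc22a26.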

How the data were processed

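Liver RNA of 36 mice (TruSeq stranded total RNA, 50-base single reads) gave 1 table of estimated counts per gene, which the authors deposited without normalization and of which 3.64% were not whole. The labels' processing notes name Cuffdiff, SAMtools, featureCounts, edgeR and the build mm9, but the gene positions in the table are those of GRCm38 (99.7% of the 95.1% of IDs found in GENCODE M21). The use of strand in counting is not given in the sources used here. A second deposited table of fitted group means was not used. Counts were rounded, filtered (filterByExpr with the 6 groups), scaled by trimmed mean of M-values and fitted with edgeR 4.0.16 (R 4.3.3, glmQLFit with robust estimation, glmQLFTest), with 1 coefficient per group over all 36 libraries, and p-values were Benjamini-Hochberg adjusted over 13945 genes. On data simulated for the genotype effect in fasted mice (13822 genes), 174 of 200 genes changed by 1 on the log2 scale were recovered, and 3 of 177 calls were false. The changed genes were drawn only from those above a floor of expected counts. Recovery of smaller changes and of low-level members was therefore not measured.

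The members and the lists of other genes were chosen with earlier results of these data known. Members named with values were Slc22a5 and Slc19a1, those called by genotype (the 12 with the smallest p where more were called) or in a genotype difference of a response, the 6 that rose and the 6 that fell with the smallest p in each fasting and refeeding response, the highest of each family and the 10 highest overall. Others were named after their values were seen. Some genes that these rules select are not reported here, though the counts include them. Shared 50-base stretches were counted on GENCODE M21 transcripts, and promoters were aligned with Biopython 1.88. Alternatives were DESeq2 1.42.0, limma-voom (limma 3.58.1), edgeR's likelihood ratio test, other scalings and filters, fits on the compared groups alone, the mouse number series as a covariate and leaving out each mouse.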

Additional observations from a re-analysis of the deposited data

Results flagged for a closer look

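In 7 of 210 groups of 6 mice, 1 mouse stood apart from the others by Dixon's criterion, which chance alone meets in about 1 of 20 groups. Slc22a26 was at 14.3 CPM in 1 fed WT/Y657* mouse, and the next mouse of its group was at 0.429 CPM. Slc10a2 was at 26.1 CPM in 1 fasted WT/Y657* mouse (next 10.8 CPM) and at 9.31 CPM in 1 fasted wild-type mouse (next 7.16 CPM). Slc10a1 was at 218 CPM in 1 refed WT/Y657* mouse (next 338 CPM). Slc22a15 was at 6.74 CPM in 1 refed WT/Y657* mouse (next 5.88 CPM), Slc29a1 at 148 CPM in 1 fasted wild-type mouse (next 137 CPM) and Slco1a6 at 0.504 CPM in 1 fed WT/Y657* mouse (next 0.976 CPM).

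The fasting response differed between genotypes, by the test of the difference itself (edgeR's quasi-likelihood test), for Slc19a1 (0.92 on the log2 scale), Slco1a6 (1.38), Slc17a9 (0.91), Slc17a4 (-1.42) and Slc22a26 (-4.15, which rests on the fed mouse named above). The refeeding response, which shares the fasted mice with the fasting response, differed for Slc19a1 (-0.86) and Slco1a6 (-1.33). Fed mice of both genotypes differ in mouse number. The fits with number blocks described in the report compare fed genotypes only within the block that holds both, 3 WT/Y657* and 2 wild-type mice. Mouse number and the loss of mice cannot be told apart in these fits. With the blocks the adjusted p was 0.058 for Slc19a1, 0.055 for Slco1a6, 0.35 for Slc17a9, 0.23 for Slc17a4 and 0.81 for Slc22a26 (edgeR). The part of mouse number in the fasting differences was not tested apart from the loss of mice.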

How the results depend on the processing

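Counts of called members under other settings stayed within 1.5 times the count first given in 227 cases and moved beyond it in 33, and values of named members kept their direction and side of the threshold in 2665 cases, lost the call in 258 and reversed in 17. The settings that use blocks of fed mouse numbers, or the 3 lower-numbered fed WT/Y657* mice alone, were chosen after seeing the data. The genotype effect in fed mice (3 members) gave 6 by DESeq2 and 6 by the likelihood ratio test, 5 with scaling by library size, 1 on the compared groups alone, and 0 with the blocks or with the 3 lower-numbered mice. Leaving out 1 mouse at a time gave 2 to 7, the highest without the fed WT/Y657* mouse with the next to lowest number. The genotype effect in fasted mice (13) gave 7 to 14 with 1 mouse left out, and refed against fed WT/Y657* mice (18) gave 11 to 19. The genotype difference in the fasting response (5) gave 1 with the blocks, which was none of the 5 first called, and 4 with the 3 lower-numbered fed WT/Y657* mice. It gave 3 by limma-voom, 3 without a filter, 3 on the compared groups alone, and 3 to 6 with 1 mouse left out. That in the refeeding response (2) gave 1 with at least 10 counts in every library, 1 without a filter, 1 with scaling by library size, and 1 to 2 with 1 mouse left out.

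Values near 0 changed sign. The wild-type fasting response of Slc19a1 (0.01) was -0.015 by limma-voom and -0.093 to 0.083 with 1 mouse left out. The difference in the fasting response of Slc22a5 (0.03) was -0.023 with scaling by library size and -0.054 to 0.091 with 1 mouse left out, and that in its refeeding response (-0.07) was -0.23 to 0.027. Slc22a26 in refed against fed WT/Y657* mice (-2.26) was 0.91 with the 3 lower-numbered fed mice and -2.51 to 0.76 with 1 mouse left out, turning positive without the fed mouse at 14.3 CPM. The causes of the other shifts were not tested. No paired analysis was possible because every mouse carries its own number and no number is shared between groups. Members with a mean of 0.394 CPM or less did not pass the filter on low counts and were left out of the main tests.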
